A study of Mus musculus with 8 samples.

Results

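The Zfp genes of chromosome 7 were the 87 protein-coding genes of that chromosome whose GENCODE vM1 symbol is Zfp followed by a number, of 2072 protein-coding genes on chromosome 7 and 22380 in the genome (build mm9). The rule uses name and position only, and it was set with earlier results of these data known. Their CpGs were read in neural precursor cells (NPCs) made from A2lox.cre mouse ES cells, a line that carries a doxycycline-inducible shRNA. The cells expressed a non-targeting shRNA (shScr) or one that targets *Tet3* (shTet3), and both received 2 µg/ml doxycycline for 5 days. Each shRNA had 2 replicates, and the DNA of each replicate was split into a bisulfite library (BS, which reads 5mC and 5hmC as C) and an oxidative bisulfite library (oxBS, which reads 5mC alone), so there were 8 libraries. The methods describe ES cell clones selected after transfection, and the labels do not say how many clones or differentiations the replicates come from, so the spread between them may be technical. *Tet3* RNA is not measured by these files, and the degree of knockdown was not analysed here.

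Of the 87 genes, 71 had a listed CpG in a promoter (1 kb before to 0.5 kb after a transcript start), a coding exon or an intron, and 69 kept one after a minimum of 10 calls in each of the 4 oxBS libraries. The kept set held 2055 of 2300 listed CpGs, with 1129 in promoters of 62 genes, 661 in coding exons of 38 genes and 266 in introns of 22 genes. The other 16 genes had no listed CpG in these places and are not described further. RRBS reads the ends of MspI fragments, and the kept CpGs lay on 212 fragments in promoters, 148 in coding exons and 122 in introns. CpGs of 1 fragment are read together and are not independent of each other.

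Zfp genes encode zinc finger proteins, most of them with arrays of C2H2 fingers that bind DNA, each finger holding a zinc ion between a pair of cysteines and a pair of histidines. Many also carry a KRAB box, which recruits the corepressor TRIM28 and, through it, enzymes that deposit H3K9me3. The fingers of such a gene usually lie in 1 large last exon made of near-identical repeats, and this exon is often methylated and marked by H3K9me3 while the start of the gene is an unmethylated CpG island. TET3 oxidises 5mC to 5hmC, the first step of active demethylation. Searched in the longest annotated coding sequence of each gene, 85 of the 87 held at least 1 C2H2 finger, with a median of 11 and a maximum of 33 in *Zfp619*, and 45 held a KRAB-like motif. *Zfp36*, which binds AU-rich mRNA and not DNA, had 2 CCCH fingers and no C2H2 finger, and *Zfp850* had none in its annotated sequence.

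The libraries held between 42516767 and 61865967 calls, and the median coverage of the listed CpGs of the Zfp genes lay between 48 and 60 calls per library. The control libraries differed from each other: shScr replicate 2 was more methylated than shScr replicate 1 in 25 of the 26 Zfp coding exon regions with at least 5 CpGs and in 7 of 9 intron regions. Each value below is therefore given for every library, in the order shScr replicate 1, shScr replicate 2, shTet3 replicate 1 and shTet3 replicate 2. With 2 libraries against 2, the exact permutation test cannot give a p below 0.333.

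The sequences below come from MspI fragments, each chosen as the one of its gene and compartment with the most CpGs of the kind marked. All are from mm9, written 5′ to 3′ on the strand of the gene. In the first 3, capitals mark CpGs of coding exons that were called lower in shTet3 (hypo-DMPs): *Zfp28* (chr7:6347482-6347578, plus strand), *Zfp646* (chr7:135027220-135027297, plus strand) and *Zfp592* (chr7:88183017-88183112, plus strand).
Zfp28: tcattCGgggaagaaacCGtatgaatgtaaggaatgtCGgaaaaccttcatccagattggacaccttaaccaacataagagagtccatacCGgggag
Zfp646: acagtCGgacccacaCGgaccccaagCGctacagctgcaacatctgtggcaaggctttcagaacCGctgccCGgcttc
Zfp592: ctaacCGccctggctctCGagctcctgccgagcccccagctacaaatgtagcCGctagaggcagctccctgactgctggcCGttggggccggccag
Over the 4 kept CpGs of the *Zfp28* stretch the oxBS levels were 96.0%, 98.2%, 48.4% and 79.2%, over the 5 of *Zfp646* 65.0%, 85.5%, 54.4% and 49.7%, and over the 6 of *Zfp592* 73.9%, 85.0%, 59.0% and 62.8%. In each of these stretches both shTet3 libraries lay below both shScr libraries, but the stretches were chosen for hypo-DMPs in the same libraries, so this is not separate evidence.

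The next pair comes from the single coding exon of *Zfp787* that was read (minus strand). Capitals mark CpGs called higher in shTet3 (hyper-DMPs) in the first (chr7:6084026-6084190) and hypo-DMPs in the second (chr7:6084378-6084521), which lies upstream of it in the gene.
Zfp787, higher: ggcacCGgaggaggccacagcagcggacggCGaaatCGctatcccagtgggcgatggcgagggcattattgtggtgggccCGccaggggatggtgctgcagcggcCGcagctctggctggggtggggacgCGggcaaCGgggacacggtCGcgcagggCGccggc
Zfp787, lower: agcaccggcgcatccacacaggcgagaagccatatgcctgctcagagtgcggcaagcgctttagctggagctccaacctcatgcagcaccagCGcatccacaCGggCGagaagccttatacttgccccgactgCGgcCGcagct
Hypo-DMPs in introns are shown in *Zfp667* (chr7:6241583-6241674, plus strand) and *Zfp141* (chr7:49753045-49753135, minus strand).
Zfp667: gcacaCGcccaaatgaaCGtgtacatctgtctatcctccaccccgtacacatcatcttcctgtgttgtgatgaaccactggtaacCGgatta
Zfp141: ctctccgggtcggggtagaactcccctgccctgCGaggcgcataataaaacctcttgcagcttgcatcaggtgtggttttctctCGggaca
The last is a CpG-dense stretch of the *Zfp771* coding exon (chr7:134397712-134397847, plus strand), in which capitals mark all 24 kept CpGs and no library read more than 0.159% methylation.
Zfp771: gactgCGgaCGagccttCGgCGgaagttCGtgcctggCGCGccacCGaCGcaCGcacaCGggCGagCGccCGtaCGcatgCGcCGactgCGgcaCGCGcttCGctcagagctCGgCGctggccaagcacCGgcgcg

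Zfp promoters were almost free of methylation, and Zfp coding exons and introns were mostly methylated. The mean oxBS level of the promoter CpGs was 6.32%, 7.25%, 5.91% and 6.0%, a difference of -0.829 percentage points between the shRNA means (exact permutation p = 0.333). In coding exons the levels were 57.8%, 71.6%, 54.3% and 59.8%. The difference of means was -7.69 percentage points, but shScr replicate 1 lay below shTet3 replicate 2, so the groups overlapped (exact permutation p = 0.667). In introns the levels were 51.6%, 59.7%, 44.2% and 44.4%, a difference of -11.4 percentage points with no overlap (exact permutation p = 0.333).

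The coding exon difference rested on shScr replicate 2. Without that library it was -0.811 percentage points, and without shScr replicate 1 it was -14.5. The intron difference was -8.06 without shScr replicate 2 and -15.3 without shScr replicate 1. The BS libraries of the same DNA gave differences of -0.708 in promoters, -8.51 in coding exons and -12.6 in introns, and the coding exon groups again overlapped. Over all protein-coding genes the oxBS levels of coding exons were 46.0%, 54.4%, 39.7% and 41.4%, so that Zfp coding exons were 11.9, 17.4, 14.7 and 18.5 percentage points above those of the other genes. Over all coding exon CpGs together these gaps overlapped between shRNAs. A smaller or larger change than in other genes was thus not detectable there with these libraries.

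**Figure D1:**
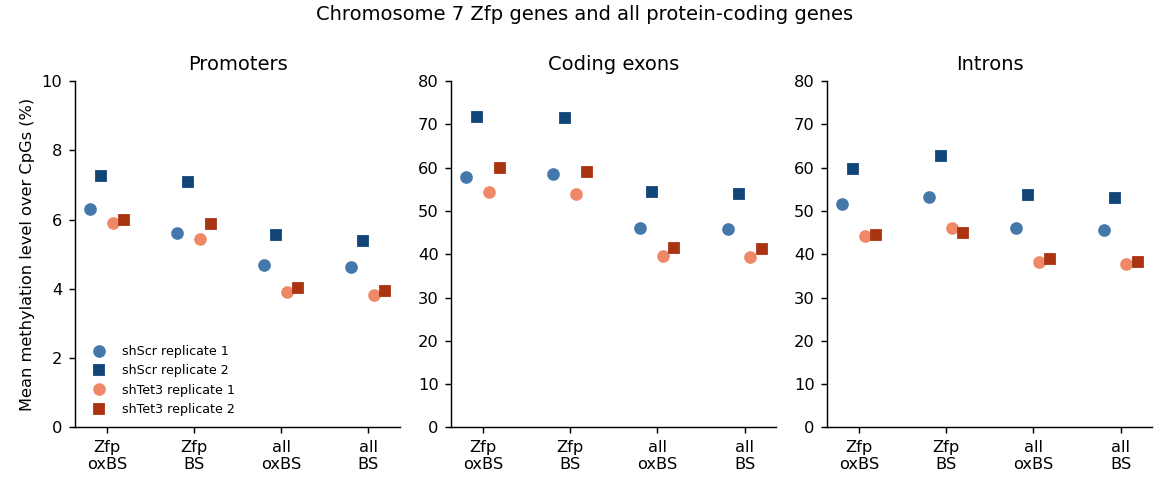
Mean methylation level (%) over CpGs of the chromosome 7 Zfp genes and of all protein-coding genes in promoters, coding exons and introns, with 1 point per library in oxBS and BS. The promoter axis has its own scale. In Zfp coding exons shScr replicate 1 (57.8% in oxBS) sits below shTet3 replicate 2 (59.8%), and in introns both shTet3 libraries sit below both shScr libraries.

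Single CpGs were tested by a logistic regression on the counts of the 4 oxBS libraries. A CpG was called when its q was under 0.01 and the pooled level differed by more than 10 percentage points. In Zfp promoters 14 CpGs (1.24%) were hypo-DMPs, against 2.00% of the promoter CpGs of all protein-coding genes, and no CpG was a hyper-DMP, against 0.0542%. In coding exons 122 CpGs (18.5%) were hypo-DMPs, against 20.6%, and 10 (1.51%) were hyper-DMPs, against 0.196%. In introns 60 CpGs (22.6%) were hypo-DMPs, against 23.3%, and none was a hyper-DMP, against 0.104%. The shares of hypo-DMPs were thus near those of all genes, but Zfp coding exons had higher shScr levels, so their shares are not at like levels. At a shScr BS level of 40 to 70%, 14.8% of Zfp coding CpGs were hypo-DMPs, against 29.7% over all genes. At 70 to 90% the shares were 25.4% and 38.1%, and at 90 to 100% they were 29.4% and 28.8%. The hyper-DMPs of coding exons were all in *Zfp787*. No overlap between the replicates of the shRNAs was seen at 13 of the 14 promoter, 104 of the 122 coding exon and 55 of the 60 intron hypo-DMPs. These CpGs were picked for a pooled difference in the same libraries, so this count is not separate evidence. Its share over the hypo-DMPs of all genes was not computed.

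The BS libraries gave 16 hypo-DMPs in Zfp promoters (1.86% called over all genes), 135 in coding exons (21.4%) and 65 in introns (23.6%). They gave 3 hyper-DMPs in coding exons (0.101% called over all genes). At the hypo-DMPs of oxBS, BS was lower in shTet3 at 13 of 13 promoter CpGs with enough BS calls, 112 of 119 coding exon CpGs and 59 of 59 intron CpGs. These libraries were made from the same DNA, so they do not add replicates. Leaving out shScr replicate 2 gave 6, 37 and 22 hypo-DMPs in promoters, coding exons and introns, which is 0.530%, 5.49% and 7.97% of the Zfp CpGs beside 1.27%, 7.97% and 9.57% of all CpGs there. Leaving out shTet3 replicate 1 gave 3, 53 and 38, or 0.265%, 7.98% and 14.2% beside 1.09%, 11.4% and 14.4%. Without shScr replicate 1 there were 28, 195 and 78 (2.34%, 28.7% and 28.9% beside 2.51%, 26.3% and 27.2%), and without shTet3 replicate 2 there were 15, 123 and 37 (1.33%, 18.1% and 13.7% beside 1.58%, 16.5% and 16.9%). The hyper-DMPs of coding exons numbered 30 without shScr replicate 2 (4.45% beside 1.04% of all), 1 without shScr replicate 1 (0.147% beside 0.110%), 3 without shTet3 replicate 1 (0.452% beside 0.230%) and 7 without shTet3 replicate 2 (1.03% beside 0.198%).

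Means over the CpGs of a gene were compared with limma, which uses the spread between replicates. No Zfp promoter, coding exon or intron region had an adjusted p below 0.05, and neither did any other gene, with 51, 26 and 9 Zfp regions of at least 5 CpGs tested in promoters, coding exons and introns. At an unadjusted p under 0.05, limma gave 1 Zfp promoter, 6 coding exons and 3 introns, all lower in shTet3. That is 1.96%, 23.1% and 33.3% of the Zfp regions, against 3.86% of promoter, 19.6% of coding exon and 27.1% of intron regions of all genes.

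Most Zfp promoters were unmethylated in all libraries. Of the 51 with at least 5 CpGs, 40 had a mean shScr level under 5% and 2 were over 40%. *Zfp667* (13 CpGs) read 0.142%, 0.217%, 0.0581% and 0.0620%, and *Zfp592* (22 CpGs) read 0.289%, 0.0777%, 0.0758% and 0%. *Zfp143*, an activator of many housekeeping promoters, read 0.638%, 0.633%, 0.271% and 0.192% over 18 CpGs, and *Zfp511* read 0.567%, 0.212%, 0.0524% and 0.128% over 36. In these 4 promoters both shTet3 libraries lay below both shScr libraries, with differences between -0.404 and -0.120 percentage points, and in BS the *Zfp143* difference had the opposite sign (0.243). *Zfp143* and *Zfp511* were named for a fall without overlap, so their lack of overlap is not a result. Of the 51 promoters, 12 were lower and 6 higher without overlap, counts that were not made over all genes. The promoter CpGs of *Zfp143* and *Zfp511* all lay in the promoter of a neighbouring gene as well.

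The methylated promoter CpGs of the Zfp genes lay mainly at transcript starts inside the gene. Overlapping windows of 1 gene were joined, which gave 69 windows with kept CpGs, and they were split by whether a start lay within 1 kb of the 5′ end of the gene, a split chosen after seeing the data. The 59 windows at 5′ ends (1042 CpGs) read 1.58%, 1.70%, 1.46% and 1.51%, a difference of -0.154 percentage points. The 10 internal windows (87 CpGs in 9 genes) read 63.1%, 73.7%, 59.2% and 59.8%, a difference of -8.91. Both groups of windows had both shTet3 libraries below both shScr libraries (exact permutation p = 0.333). The ratio of observed to expected CpGs had a median of 0.587 in the 5′ windows and 0.367 in the internal ones.

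The internal windows held 12 of the 14 promoter hypo-DMPs, a share of 13.8% of their CpGs, against 5.65% of the CpGs at internal starts of all protein-coding genes. The latter were less methylated, at 13.3% and 15.3% in shScr, so these shares are not at like levels. Of all promoter CpGs with a shScr BS level of 40 to 70% or 70 to 90%, 24.9% and 35.1% were hypo-DMPs, beside 13.6% and 13.9% of those of the Zfp genes. The 5′ windows held the other 2, in *Zfp579* and *Zfp819*, a share of 0.192% against 1.59% over all genes. The shScr levels there were 1.58% and 1.70% in the Zfp genes and 3.73% and 4.46% over all genes, so these shares are not at like levels either. Of the 87 CpGs at internal starts 69 also lay in a coding exon of another transcript of the same gene, and so did 11 of the 12 hypo-DMPs. By the rule used here such CpGs count as promoter CpGs and not as coding ones.

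**Figure D2:**
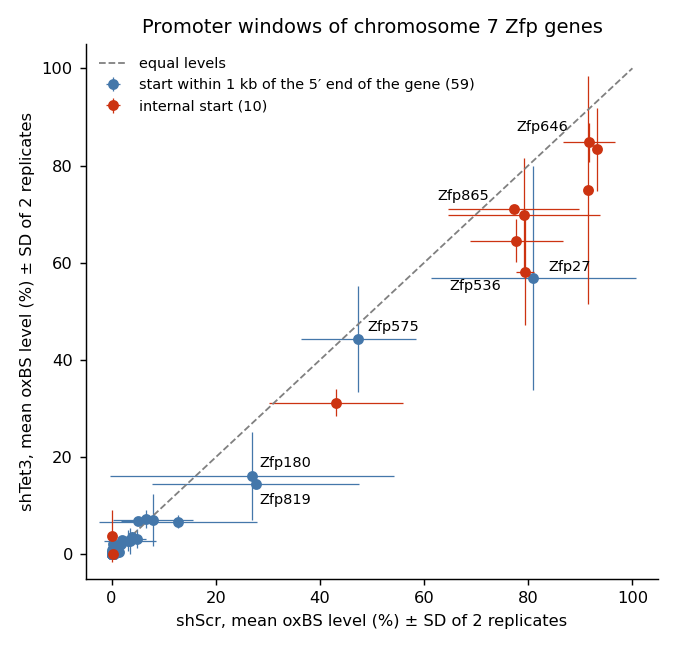
Mean oxBS level (%) of each promoter window of the chromosome 7 Zfp genes in shTet3 against shScr, with bars of ± SD over 2 replicates. Blue points are 59 windows at the 5′ end of a gene, red points are 10 windows at internal starts, and the dashed line marks equal levels. Most blue points sit near 0, and the 8 red points above 40% sit below the line.

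*Zfp536*, which represses neuronal differentiation in response to retinoic acid, was the only Zfp gene with 3 or more promoter DMPs of 1 direction. Over its 53 promoter CpGs it read 23.8%, 19.9%, 16.9% and 20%, and the groups overlapped (difference -3.37 ± 3.06, limma SE, adjusted p = 0.809). All 7 of its hypo-DMPs lay on 1 MspI fragment at a start 201362 bases inside the gene (chr7:38353022-38353107), in a coding exon of the full-length transcript. The 9 CpGs of this fragment read 79.3%, 75%, 41.1% and 59.3%, and the same CpGs in BS differed by -23.2 percentage points. At the 5′ end of the gene, 14 CpGs of 1 fragment read 0.426%, 0.187%, 0.380% and 0.310%, and 17 of another read 1.35%, 0.0606%, 0% and 0.0503%. Another fragment there (7 CpGs) read 35.9%, 13%, 37.9% and 35.3%, so that shScr replicate 2 stood apart from the others.

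*Zfp865*, with 20 C2H2 fingers, had the highest level among promoters with at least 5 CpGs, 52.5%, 66.4%, 55.0% and 54.4% over 52 CpGs, and 40 of these lay at internal starts over its coding exon. Its difference of -4.74 percentage points changed sign without shScr replicate 2 (2.45). *Zfp628* had the same arrangement: 13 CpGs of its 5′ island read 0% to 0.115%, and 9 CpGs at a start 3585 bases inside the gene read 71.4%, 84.1%, 67.7% and 61.4%. In *Zfp646* the 62 CpGs at the 5′ end, which are also the promoter CpGs of its neighbour *Zfp668*, read 0.113% or less in every library, and the 4 at an internal start read 88.1%, 95.1%, 81.9% and 87.6%. *Zfp568*, a KRAB gene needed in early mouse embryos, read 10.7%, 10.7%, 8.85% and 10.2% over 35 promoter CpGs, and its 4 internal CpGs read 93.5%, 92.9%, 77.3% and 89.3%. *Zfp473* had internal starts only, with 3 CpGs at 34.0%, 52.1%, 33.2% and 29.2% and 10 CpGs at 0.40% or less.

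Methylated starts at the 5′ end were few and varied between replicates. *Zfp819*, a KRAB gene expressed in pluripotent cells, read 13.6%, 41.7%, 14.0% and 14.9% over 9 CpGs, so shScr replicate 2 alone was high. Its difference of -13.2 percentage points became 0.843 without that library. *Zfp180* read 46.3%, 7.69%, 22.5% and 9.76% over 8 CpGs, where shScr replicate 1 was the high library, and its difference of -10.9 became 8.43 without it. *Zfp575* read 39.5%, 55.2%, 36.7% and 52.1% over 6 CpGs, with overlap, and its difference of -2.95 in oxBS was 5.49 in BS.

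Promoters that were higher in both shTet3 libraries were higher by less than 2 percentage points. *Zfp420* read 0.171%, 0.347%, 3.81% and 0.487% over 9 CpGs. *Zfp296*, a factor of pluripotent cells, read 1.36%, 2.58%, 2.79% and 3.35% over 20, and *Zfp74* read 0.444%, 0%, 1.46% and 0.644% over 15. In the BS libraries the difference had the opposite sign in all 3 (-0.168, -0.643 and -0.394 percentage points). *Zfp36* read 1.22%, 2.27%, 2.68% and 1.55% over 28 promoter CpGs, with overlap, and had no kept CpG in its coding exons or introns.

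Zfp coding exons were mostly highly methylated. Of the 26 regions with at least 5 CpGs, 21 had a mean shScr level over 70%, and *Zfp771*, with 93 CpGs at 1.13%, 2.56%, 1.42% and 2.45%, was the 1 region under 10%. In 24 of the 26 the shTet3 mean was lower, beside 4172 of 4466 coding exon regions over all genes. The median difference was -10 percentage points (-12 over all genes). In 16 both shTet3 libraries lay below both shScr libraries, a count that was not made over all genes. In 14 of the 26 the 2 shScr libraries differed from each other by more than the shRNA means did. Hypo-DMPs lay in 29 genes, most of all in *Zfp646* (15), *Zfp865* (14), *Zfp629* (12) and *Zfp710* (10).

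Among these regions the highest control levels were in *Zfp30*, *Zfp629*, *Zfp28*, *Zfp109*, *Zfp710* and *Zfp668*. *Zfp30* (9 CpGs) read 98.0%, 95.2%, 78.0% and 89.5%. *Zfp629*, with 19 fingers, read 91.5%, 93.5%, 84.7% and 80.2% over 41 CpGs, of which 39 were lower in shTet3 and 12 were hypo-DMPs. *Zfp710* read 85.0%, 92.4%, 67.0% and 76.7% over 23 CpGs, all of them lower. In these 3 genes the shRNAs did not overlap, and the differences were -12.9, -10.1 and -16.9 percentage points. *Zfp109* and *Zfp668* were also lower without overlap, by 11.1 and 8.23 percentage points.

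Among coding exon regions with at least 5 CpGs, the largest differences without overlap were in *Zfp536*, *Zfp768*, *Zfp28*, *Zfp646*, *Zfp324* and *Zfp592*. *Zfp536* read 57.0%, 65.9%, 27.0% and 41.0% over 7 CpGs (difference -27.5 ± 11.6, limma SE, adjusted p = 0.246). The median coverage there was 13, so each of these CpGs is known only roughly. *Zfp768* (12 CpGs) read 58.3%, 84.9%, 46.5% and 55.2%, and shScr replicate 1 was only slightly above shTet3 replicate 2. *Zfp28*, a KRAB gene with 14 fingers, read 87.9%, 94.4%, 62.1% and 79.6% over 9 CpGs (difference -20.3 ± 7.33, limma SE, adjusted p = 0.246), and its BS libraries differed by -20.2 percentage points.

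*Zfp646*, with 27 fingers, read 78.4%, 91.3%, 60.9% and 69.7% over 21 CpGs, all lower in shTet3 and 15 of them hypo-DMPs (difference -19.5 ± 7.24, limma SE, adjusted p = 0.246). Its BS libraries differed by -20.5 percentage points, with 13 hypo-DMPs. *Zfp324* (7 CpGs) read 74.5%, 92.1%, 65.6% and 63.0%, a difference of -19.0 in oxBS and of -9.15 in BS, where the groups overlapped. *Zfp592* (6 CpGs on 1 fragment, shown above) read 73.9%, 85.0%, 59.0% and 62.8%, and its BS libraries 70.2%, 89.8%, 60.6% and 68.2%. In all 6 genes the adjusted p of limma was between 0.246 and 0.263.

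**Figure D3:**
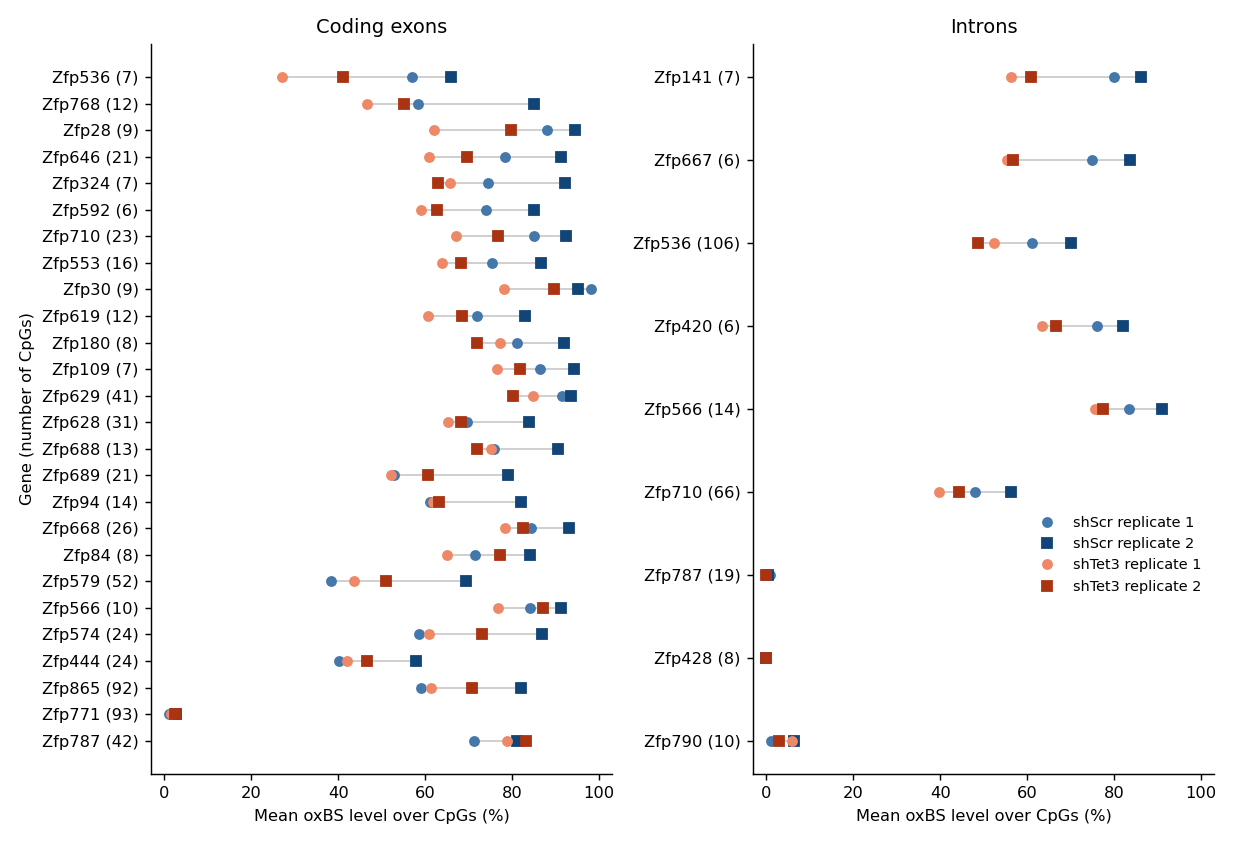
Mean oxBS level (%) of each coding exon region (left, 26 genes) and intron region (right, 9 genes) with at least 5 kept CpGs, 1 point per library, ordered by the difference between shRNA means. Numbers in brackets are kept CpGs. In *Zfp646* the shTet3 libraries (60.9% and 69.7%) lie below the shScr libraries (78.4% and 91.3%), whereas in *Zfp865* and *Zfp579* the points of the shRNAs interleave.

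In several long coding exons the libraries of the shRNAs interleaved. *Zfp865* read 58.9%, 82.1%, 61.4% and 70.7% over 92 CpGs, *Zfp579* 38.4%, 69.3%, 43.5% and 50.9% over 52, and *Zfp574* 58.5%, 86.9%, 60.8% and 73.0% over 24. In each, shScr replicate 1 was the lowest library and shScr replicate 2 the highest, with both shTet3 libraries between them. *Zfp771*, whose sequence is shown above, differed by 0.0889 percentage points.

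The 117 coding CpGs of 15 Zfp genes with a KRAB-like motif read 73.4%, 86.4%, 63.3% and 71%, without overlap (difference -12.8), and 33 (28.2%) were hypo-DMPs. The 544 coding CpGs of 23 genes without the motif read 54.5%, 68.4%, 52.3% and 57.4% (difference -6.60), and 89 (16.4%) were hypo-DMPs. The search used a single pattern in the longest coding sequence, so genes without the motif may still encode a KRAB box. The set without the motif holds the 93 near-unmethylated CpGs of *Zfp771*. Without that gene it read 65.5%, 82%, 62.8% and 68.7% (difference -7.98, 19.7% hypo-DMPs). The gap between both sets was 18.9 and 18 percentage points in shScr and 11 and 13.6 in shTet3 with *Zfp771*, and 7.94 and 4.37 in shScr and 0.451 and 2.27 in shTet3 without it (exact permutation p = 0.333 for both, the smallest possible). Without shScr replicate 2 the genes without the motif differed by 0.340 percentage points. In introns the genes with the motif differed by -14.3 (38 CpGs) and those without by -11 (228 CpGs).

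Of 657 coding CpGs placed in the longest coding sequence, 313 lay in codons of a C2H2 finger, 116 in the linkers between fingers and 228 elsewhere. Finger CpGs read 57.1%, 69.4%, 53.1% and 58.5%, linker CpGs 59.8%, 71.2%, 54.0% and 61.1%, and other coding CpGs 57.7%, 74.6%, 55.6% and 60.6%. The differences of -7.45, -7.92 and -8.10 percentage points were all smaller than the gap between the shScr libraries. Without *Zfp771* the shScr means were 77.3%, 79.0% and 70.5%, and the differences -9.23, -9.55 and -8.62, again smaller than that gap. Among the finger CpGs, 168 were the first bases of an arginine codon (CGN), and 26 joined a cysteine and a glycine codon, of which 18 read TGCGGC.

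*Zfp787* was the only Zfp gene with hyper-DMPs in oxBS. Its coding exon (42 CpGs over 4 MspI fragments) read 71.2%, 81.0%, 78.9% and 83.1%, with overlap (difference 4.94 ± 6.26, limma SE, adjusted p = 0.557). It held 10 hyper-DMPs and 6 hypo-DMPs, which lay in different stretches, as the sequences above show. The 17 CpGs of the downstream fragment read 58.8%, 81.3%, 87.3% and 81.3%, with 9 hyper-DMPs and none in a finger codon, and shScr replicate 1 was the low library. The 11 CpGs of the upstream fragment read 82.3%, 86.2%, 72.7% and 83.4%, with 5 hypo-DMPs and 1 hyper-DMP, and here shTet3 replicate 1 was the low library.

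The 3 hyper-DMPs with the largest pooled difference and no overlap were at positions 6084059, 6084031 and 6084052. Position 6084059 read 41.8%, 68.2%, 98.1% and 83.3% (44.1 percentage points, q = 3.03e-08), on 22 to 55 calls. In the BS libraries the same CpG read 76.4%, 86.7%, 87.5% and 92.9% (10.6 percentage points, q = 0.351). Position 6084031 differed by 33.5 percentage points in oxBS and by -5.53 in BS, and position 6084052 by 33.4 and 18.6. Of the 10 hyper-DMPs, 7 had a difference of the same sign in BS and 1 was called there. Without shScr replicate 1 the difference over the exon was -0.00627 percentage points.

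Among the hypo-DMPs of *Zfp787*, position 6084428 read 81.4%, 80%, 39.3% and 66.1% in oxBS (-30.6 percentage points, q = 1.70e-06) and 55.7%, 84.4%, 80% and 85.2% in BS. The promoter of the gene (46 CpGs) read 0.231% or less and its intron (19 CpGs) 0.855% or less in every library. Over all Zfp coding exons without *Zfp787*, the difference was -8.55 percentage points and no hyper-DMP remained.

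**Figure D4:**
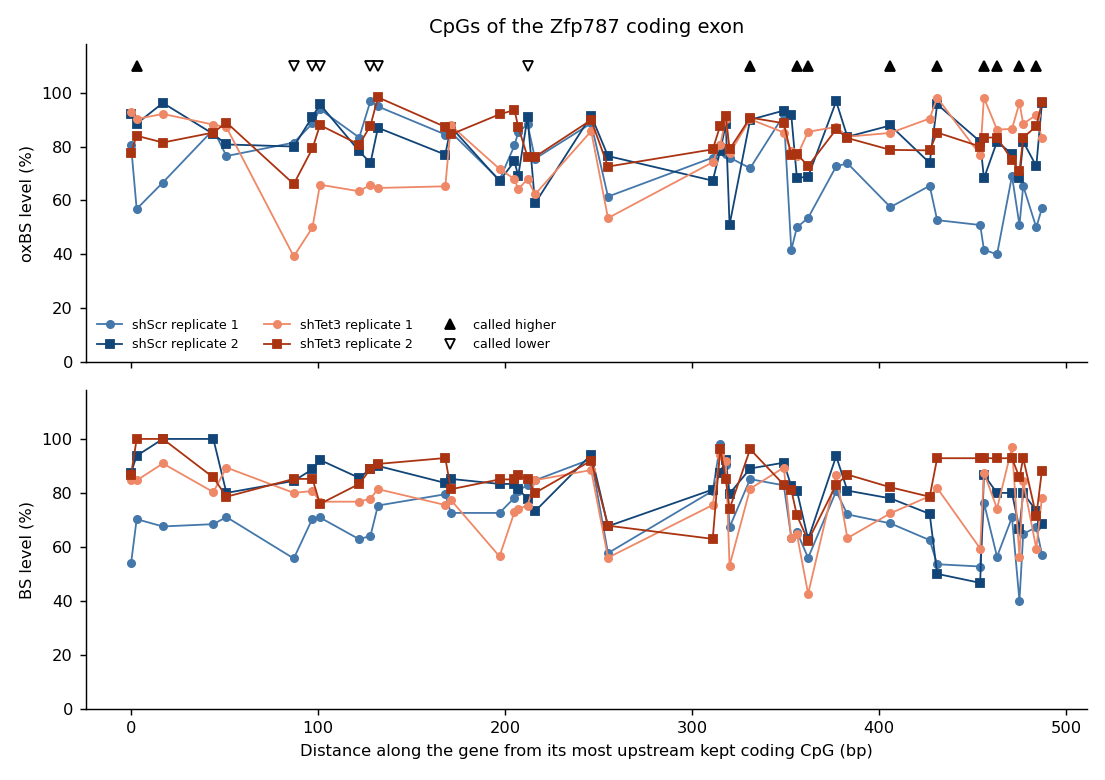
Methylation level (%) of the 42 kept CpGs of the *Zfp787* coding exon in oxBS (top) and BS (bottom), 1 line per library, against the distance along the gene in bp. Filled triangles mark the 10 CpGs called higher and open triangles the 6 called lower in oxBS. At the right end shScr replicate 1 runs below the other oxBS libraries (58.8% over the 17 CpGs), and under the open triangles on the left shTet3 replicate 1 does (72.7% over the 11 CpGs).

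The 3 largest single falls with no overlap were in *Zfp14* and *Zfp536*. In *Zfp14*, position 30823329 read 92.3%, 100.0%, 30% and 84.6%, and position 30823363 read 100.0%, 70%, 26.3% and 69.2%. In *Zfp536*, position 38278803 read 69.2%, 84.6%, 18.2% and 57.1%. Their pooled differences were -44.1, -43.2 and -43.6 percentage points, on only 10 to 22 calls per library. shTet3 replicate 1 was the lowest library at each of the 3, and the BS differences at the pair in *Zfp14* were -5.43 and -18.9 percentage points, neither of them called.

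Among intron regions with at least 5 CpGs, the methylated ones of Zfp genes were lower in shTet3. Over all genes 5883 of 6220 such intron regions were lower. Of the 9 Zfp regions, 7 were lower with no overlap, a count that was not made over all genes, and one of them was *Zfp787* near 0%. Of the others, 1 was higher (*Zfp790*, 10 CpGs, by 0.771 percentage points with overlap) and 1 was at 0% throughout (*Zfp428*, 8 CpGs). The 6 with the highest control level, all over 40%, were also the 6 with the largest differences. The other 3 were under 5% in shScr and could not fall as far, so this match was fixed in advance. *Zfp141* (7 CpGs, shown in part above) read 80%, 86.2%, 56.3% and 60.9% (difference -24.5 ± 5.84, limma SE, unadjusted p = 0.00587, adjusted p = 0.182). *Zfp667*, a KRAB gene with 14 fingers, read 74.8%, 83.7%, 55.4% and 56.7% over 6 CpGs (difference -23.2 ± 6.11, limma SE, unadjusted p = 0.00923, adjusted p = 0.182).

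The BS libraries gave differences of -27.1 in *Zfp141* and -18.9 in *Zfp667*, again with no overlap. At position 6241668 of *Zfp667* the oxBS levels were 82.6%, 75.4%, 29.8% and 39.7% (-42.5 percentage points, q = 5.65e-09) and BS differed by -35.6 (q = 1.24e-07). *Zfp420* (6 CpGs) read 76.0%, 82.1%, 63.5% and 66.6%, and *Zfp566* (14 CpGs) 83.5%, 91.1%, 75.6% and 77.4%.

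*Zfp536*, with the most intron CpGs of the set, read 61.0%, 70%, 52.3% and 48.7% over 106 CpGs on 52 fragments, of which 95 were lower in shTet3 and 29 were hypo-DMPs. Its intron difference was -15.0 percentage points in oxBS and -16.3 in BS (limma adjusted p = 0.189 and 0.191). It was thus lower in introns, in its coding exon and at its internal start, whereas the 41 CpGs at its 5′ end read 7.20%, 2.78%, 7.16% and 6.58%. *Zfp710* read 47.9%, 56.2%, 39.8% and 44.4% over 66 intron CpGs, with 12 hypo-DMPs, and 10 of these CpGs, on 1 fragment, read 0.846%, 0.203%, 0% and 0%.

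The control level limits how far a CpG can fall, so Zfp CpGs were compared with those of all protein-coding genes of a similar level, taken from the shScr BS libraries. In coding exons at 40 to 70%, 122 Zfp CpGs read 44.6%, 73.1%, 49.6% and 56.3% in oxBS, a difference of -5.95 percentage points, against -15.1 over all genes. At 70 to 90%, 252 Zfp CpGs read 73.0%, 87.0%, 67.0% and 73.0%, a difference of -9.99 against -15.9. At 90 to 100% the differences were -10.2 (126 CpGs) and -11.4.

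Set against the other genes of the same class in each library, the Zfp coding CpGs at 40 to 70% were -5.50, 6.36, 5.66 and 13.7 percentage points apart, and the shRNAs overlapped (exact permutation p = 0.667). At 70 to 90% the gaps were -2.14, 0.599, 3.08 and 7.26 without overlap (exact permutation p = 0.333). At 90 to 100% they were 0.624, 0.506, 2.30 and 1.26, also without overlap. In introns the Zfp CpGs differed by -17.7 against -17.4 over all genes at 40 to 70%, by -16.2 against -17.8 at 70 to 90%, and by -8.01 against -12.7 at 90 to 100% (27 CpGs), where the gaps to other genes were -0.749, -1.03, 3.18 and 4.46 without overlap. In promoters the differences were -12.1 against -13.4 at 40 to 70% (22 CpGs), -10.4 against -15.9 at 70 to 90% (36) and -4.94 against -11.8 at 90 to 100% (14). Promoter CpGs under 10% differed by 0.0111 percentage points (956 CpGs), and none of them was a hypo-DMP.

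**Figure D5:**
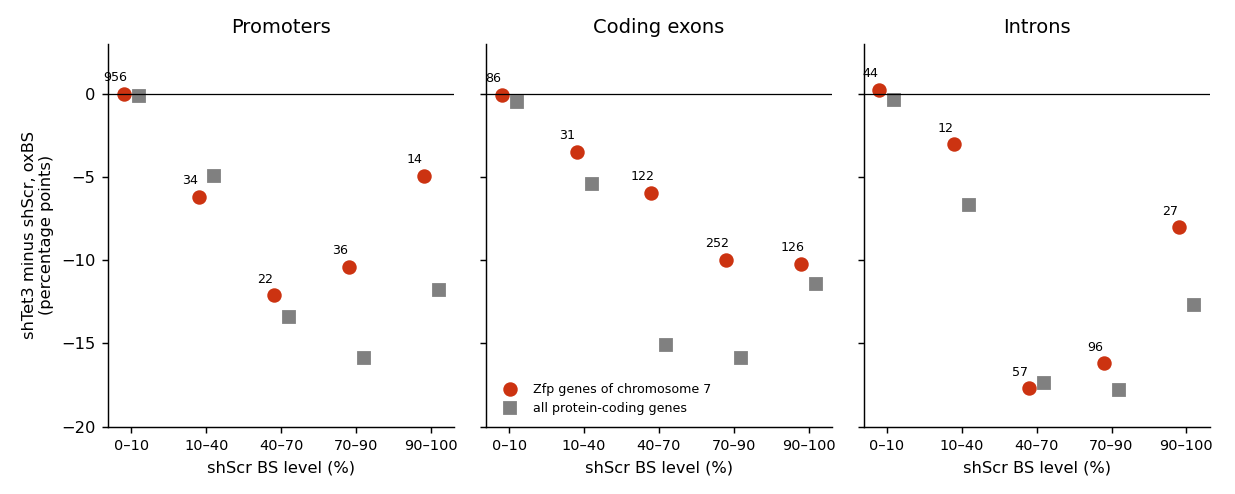
Difference in oxBS level between shTet3 and shScr (percentage points) for CpGs grouped by their shScr BS level (%), in promoters, coding exons and introns. Red circles are the chromosome 7 Zfp genes with their number of CpGs above, and grey squares are all protein-coding genes. In coding exons at 40 to 70% the Zfp genes sit at -5.95 and all genes at -15.1, and in introns of that class they sit at -17.7 and -17.4. Single libraries are not drawn, and in that coding exon class their gaps to other genes overlapped between the shRNAs.

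BS above oxBS at a CpG is read as 5hmC, and BS below oxBS, which 5hmC cannot give, shows the background of the call. In shScr, 7 of 1978 Zfp CpGs had BS above oxBS (0.273% called over all genes) and 3 had BS below oxBS (0.134%). In shTet3, 1 of 2079 had BS above (0.0187%) and none below (0.0122%), or 1 below with the DNA sample as a block. The mean of BS minus oxBS over the Zfp CpGs was 0.307, 0.291, 0.154 and 0.0396 percentage points in the DNA samples of the order above, beside means of 0.308 in shScr and 0.242 in shTet3 over all genes. Within a compartment the replicates differed more, with SDs of 0.326, 0.470 and 0.368 in shScr for promoters, coding exons and introns (n = 2).

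Of the 7 CpGs called above in shScr, 6 were in coding exons. A pair of neighbours in *Zfp566* read 100.0% and 95.8% in BS against 79.8% and 84.2% in oxBS at position 30863428, and 100.0% and 100.0% against 82.2% and 86.8% at position 30863433. In *Zfp579*, position 4946298 read 78.1% and 94.7% against 20% and 88.1%, so there replicate 1 of oxBS stood alone. The 1 call in shTet3 was position 6084428 of *Zfp787*, with 80% and 85.2% in BS against 39.3% and 66.1% in oxBS, which was also one of its hypo-DMPs. In both shRNAs the calls depended on which replicate was kept. Leaving out 1 replicate sets 1 BS library against 1 oxBS library. No share over all genes was computed for that setting, so its counts are not given.

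The 284 Zfp genes of other chromosomes read 46.3%, 54.8%, 40.6% and 44.1% in coding exons (1378 CpGs, difference -8.22) with 18.9% hypo-DMPs, and 3.40%, 3.87%, 2.89% and 2.99% in promoters. Their coding exon and promoter levels were thus lower than those of the chromosome 7 genes in every library, and their coding exon groups did not overlap. Of their 61 coding exon regions 53 were lower, with a median of -11.2 percentage points, beside -10 for the chromosome 7 genes. The 16 other zinc finger genes of chromosome 7, such as *Peg3* and the Zscan genes, had 5 coding exon regions tested, all 5 lower, with a median of -17.2. Of 20 annotated gene entries for the KRAB genes *Zfp57* and *Zfp445* and for genes whose products work with KRAB proteins, such as *Trim28* and *Setdb1* (*Atf7ip* has 2 entries), 15 promoters were tested, 7 lower and 7 higher, with a median of 0 and none called by limma, which gave 1 of them at an unadjusted p under 0.05.

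Along the chromosome the Zfp genes formed 17 groups separated by gaps of more than 1 Mb, the largest with 14 genes. The 14 genes from *Zfp84* to *Zfp146* (chr7:30553571-30954746) read 84.0%, 87.5%, 68.3% and 81.3% in coding exons (33 CpGs), without overlap. The 14 from *Zfp180* to *Zfp526* (chr7:24866943-26012526) read 67.5%, 87.5%, 65.5% and 71.5% (56 CpGs), with overlap. The 10 from *Zfp553* to *Zfp646* (chr7:134376575-135029510) read 48.5%, 56.6%, 43.7% and 46.1% (247 CpGs), and their level includes the 93 CpGs of *Zfp771* near 0%. The 6 from *Zfp628* to *Zfp580* (chr7:4866819-5005324) read 53.9%, 77.1%, 55.7% and 63.2% (181 CpGs), where the shScr libraries were the lowest and the highest. The coding exons of every group with at least 5 CpGs had a lower shTet3 mean, from -27.5 percentage points in *Zfp536* to -1.70 in the group that holds *Zfp787*.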

How the data were processed

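Methylation was measured by oxidative reduced representation bisulfite sequencing (oxRRBS) in NPCs with shScr or shTet3, in 2 replicates each. From 100 ng of genomic DNA cut with MspI, BS and oxBS libraries were made with 18 PCR cycles and read as 75 bp single ends. The authors trimmed reads with Trim Galore, aligned them to mm9 and extracted methylation with Bismark, and used methylKit downstream; their versions are not given in the sources used here. The deposited tables give, for each CpG with at least 5 calls, its coverage (the count of calls) and the percent read as C and as T, from which methylated call counts were restored. PCR duplicates cannot be told apart in RRBS, so counts are not independent molecules, and no interval from counting alone is given.

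CpGs had to have 10 calls in each of the 4 libraries compared. Places were taken from GENCODE vM1, with promoters from 1 kb before to 0.5 kb after a transcript start first, then coding exons, other exons and introns. Levels are means over CpGs of each library. Single CpGs were tested with a logistic regression and likelihood ratio test that ignores the spread between replicates (Benjamini-Hochberg q below 0.01 over all kept CpGs of the genome, and a pooled difference over 10 percentage points). Gene means of at least 5 CpGs were tested with limma 3.58.1 (R 4.3.3), with trend, and adjusted within promoters, coding exons or introns. Compartment means were compared with a two-sided exact permutation test. Other steps used Python 3.11.15, numpy 2.4.6, pandas 2.3.3 and scipy 1.17.1, and the tests were tried on simulated data.

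Named genes were, in each compartment, the 6 regions with the highest shScr level, and the 6 with the largest fall and the 3 with the largest rise among those without overlap between shRNAs, genes with 3 or more promoter DMPs of 1 direction, *Zfp536*, *Zfp592*, *Zfp667*, *Zfp787*, *Zfp36*, *Zfp296*, *Zfp568* and *Zfp819*, and the 3 CpGs of each direction with the largest pooled difference and no overlap. Others named were chosen after their values were seen. The members and lists were chosen with earlier results of these data known. BS and oxBS libraries of 1 number share their DNA, and their deviations from the shRNA mean correlated over the Zfp CpGs (r = 0.550 in shScr and 0.287 in shTet3). A number shared by shScr and shTet3 is not said to mark a common differentiation. The split of promoter windows by their distance from the 5′ end and the values without *Zfp865*, *Zfp787* or *Zfp771* were added after seeing the data.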

Additional observations from a re-analysis of the deposited data

How the results depend on the processing

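The mean differences of coding exons and introns kept their sign under every alternative tried, and that of promoters under all but one. Read-weighted levels gave 0.114 percentage points in promoters, promoters from -2 kb to +1 kb gave -1.45, the mean over genes -1.33, and starts within 1 kb of the 5′ end alone, an alternative chosen after seeing the data, -0.145. The cause was not tested. Leaving out 1 library gave -1.26 to -0.346 in promoters, -14.5 to -0.811 in coding exons and -15.3 to -8.06 in introns.

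Leaving out 1 library gave 3 to 28 hypo-DMPs and 0 to 5 hyper-DMPs in promoters, 37 to 195 and 1 to 30 in coding exons, and 22 to 78 and 0 to 1 in introns. It gave 0 to 3 introns called by limma, the 3 of 9 without shScr replicate 1, where 2997 of 6401 intron regions of all genes were called lower. The number of CpGs with BS above and below oxBS ranged from 0 to 13 and 0 to 8 in shScr and from 0 to 3 and 0 to 6 in shTet3. The F test corrected for overdispersion has 2 residual degrees of freedom and gave 0 hypo-DMPs, 0 hyper-DMPs and 0 CpGs with BS above or below oxBS. It made no call on simulated data either, so its zeros say nothing about stability. Wider promoters gave 28 promoter hypo-DMPs, for which no share over all genes was computed, and the 5′ starts alone gave 2. BS libraries gave 3 hyper-DMPs in coding exons and 1 in introns. A coverage minimum of 20 gave 1 CpG with BS below oxBS in shTet3.

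The replicate numbers of shScr and shTet3 share only a number, and their deviations correlated with r = 0.135 over the Zfp CpGs and -0.0361 over all CpGs. With the replicate block limma called 7 of the 26 Zfp coding exons lower (adjusted p under 0.05: *Zfp28*, *Zfp30*, *Zfp109*, *Zfp324*, *Zfp629*, *Zfp646* and *Zfp710*), beside 824 of the 4466 coding exon regions of all genes called lower and 6 higher. It called no Zfp promoter or intron. The block gave 15, 121 and 64 hypo-DMPs and 1, 7 and 1 hyper-DMPs in promoters, coding exons and introns, and between BS and oxBS of the same DNA 1 CpG below in shTet3. Shares over all genes were not computed for these counts of single CpGs, so they have no background.

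Of the values and counts over all Zfp promoters, coding exons or introns, 137 of 182 alternatives lay within 1 SD between replicates of the value reported, or within 1.5 times for a count. That SD was 7.42 percentage points for the coding exon difference. The coding exon values with either shScr library left out, given above, lay within it, so this tally does not show that the difference was stable. For single gene regions and CpG groups, 307 of 333 alternative values lay within 1 SD between replicates of the value reported, and 18 had the other sign, 11 of them when 1 library was left out. Depth limits single CpGs, with coverage down to 10 calls.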

Other observations

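In exons outside the coding sequence, 49 CpGs of 14 Zfp genes read 67.9%, 79.0%, 57.8% and 62.8% in oxBS (shScr replicates 1 and 2, shTet3 replicates 1 and 2), a difference of -13.1 percentage points without overlap. Such exons of other genes were not compared, so it is not known whether this differs from them.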
